A study of Homo sapiens with 6 samples.

Results

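Respiratory complex I is described here through the genes that encode its nuclear subunits and its dedicated assembly factors, and through the position of HA-tagged MMP-2 and of H3K4me3 at their promoters in U2OS cells. The members were all protein coding genes of the GENCODE annotation on GRCh37 with a symbol that starts with NDUF, which gave 48 of 20162 genes. By symbol, 40 were named as subunits (NDUFA, NDUFB, NDUFC, NDUFS and NDUFV) and 8 as assembly factors (NDUFAF). Of the 40, 7 were core subunits, 30 were supernumerary subunits, and the other 3 were NDUFA4, its paralogue NDUFA4L2 and the read-through gene NDUFC2-KCTD14, which starts at the promoter of NDUFC2. These 48 genes were spread over 22 chromosomes, and only NDUFC2 and its read-through gene shared a promoter.

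Complex I, the NADH:ubiquinone oxidoreductase, is the largest enzyme of the mitochondrial respiratory chain. It takes electrons from NADH, passes them along a chain of iron-sulphur clusters to ubiquinone and pumps protons across the inner membrane. The core subunits carry out this chemistry and are shared with the bacterial enzyme, the supernumerary subunits surround them, and the assembly factors help to build the complex without staying in it. Some core subunits are encoded by mitochondrial DNA and carry other names, so only those encoded in the nucleus were covered. H3K4me3 is a histone mark of the promoters of active genes, and the genes of the respiratory chain are expressed in most cell types.

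Native ChIP-Seq (nChIP-Seq, micrococcal nuclease and no crosslinking) had been performed in U2OS, a human osteosarcoma line, grown to 2 days past confluence. The stable ProMMP2-3xHA line (Pro-MMP2-3XHA in the labels) expressed full-length MMP-2, a protease, in its pro-form with a C-terminal 3xHA tag from a lentiviral construct under constitutive expression, beside the endogenous MMP-2 of these cells, and the WT line carried no tag. There were 3 HA replicates of ProMMP2-3xHA cells, described by the study as independent biological experiments, and 1 H3K4me3 library of each line, and no list of HA in WT cells, which the labels also name, was used here. By the names of the lists, the HA replicates were called against an HA control. All values came from peak lists: 1 list per HA replicate, 1 merged list of the HA replicates and 1 H3K4me3 list per line. A gene was counted as having a peak when a peak lay within 1 kb of its canonical transcription start site (TSS).

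The HA libraries held 4.74, 4.34 and 4.23 fragments per base in replicates 1, 2 and 3, with medians of 49, 44 and 41 fragments at the summits, while the depth behind the H3K4me3 lists is unknown. Their depth was 3.57, 2.81 and 3.00 times that of the control. Below, HA fragments are not scaled for depth, and control values are on the scale of the control. The fold enrichment divides the HA fragments by this depth ratio and adds 1 to both values, so it is not fragments over control. The list of replicate 2 held no peak under 281 bp, whereas those of replicates 1 and 3 held narrower ones. As a check of the cell type, RUNX2, COL1A1, SPARC and VIM had H3K4me3 in both lines, whereas SP7, COL1A2 and ALPL, also listed as osteosarcoma and mesenchymal markers, had none in either. Of the markers of other cell types, PTPRC and CDH1 had no H3K4me3 in either line, EPCAM had it in WT cells only, and PECAM1 was not scored. H3K4me3 is not expression, so this check was on the mark alone.

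The promoters were first compared as sequences, because short promoter motifs are a feature that the choice of genes by name did not use. Letters that match the cores of 3 factors known for mitochondrial and housekeeping promoters were searched on both strands from 250 bases before to 50 bases after the TSS. These were GCATGCGC (NRF1), CCGGAAG (ETS factors) and AAGATGGCG (YY1). The letters of YY1 were found in 8 of the 48 members (16.7%), against 2.81% of all 20162 promoters of the same length, and those of NRF1 in 8 (16.7%), against 4.26%. Those of ETS factors were found in 10 (20.8%), against 14%. The NRF1 letters overlap their own reverse complement, so that 1 place can match on both strands, as at NDUFA8, NDUFAF5 and NDUFB4. Among the promoters near both H3K4me3 lists, 17.0% of the 47 members and 4.51% of 12149 TSSs held the YY1 letters, and 17.0% and 6.13% held the NRF1 letters. For the ETS letters these shares were 21.3% and 20.8%, so that the members were near the background.

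Promoters with the YY1 letters, 7 in number, are printed below from 80 bases before the TSS to the end of the match, in the direction of the gene. NDUFA6, NDUFA7 and NDUFS7 are shown because letters of 1 of the motifs lay inside an HA peak of every replicate. NDUFAF8, NDUFA9, NDUFB8 and NDUFS4 were added after their values were seen, so that the same letters can be read at promoters with and without HA peaks. Capitals mark the YY1 letters at the end of each line, and further upstream the NRF1 letters of NDUFS7 and the ETS letters of NDUFAF8.
NDUFA6: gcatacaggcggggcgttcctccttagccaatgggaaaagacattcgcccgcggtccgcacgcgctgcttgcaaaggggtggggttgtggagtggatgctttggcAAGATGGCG
NDUFA7: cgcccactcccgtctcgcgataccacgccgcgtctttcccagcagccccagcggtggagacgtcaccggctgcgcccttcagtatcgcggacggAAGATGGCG
NDUFS7: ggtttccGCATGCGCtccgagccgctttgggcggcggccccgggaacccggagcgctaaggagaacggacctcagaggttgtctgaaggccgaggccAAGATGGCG
NDUFAF8: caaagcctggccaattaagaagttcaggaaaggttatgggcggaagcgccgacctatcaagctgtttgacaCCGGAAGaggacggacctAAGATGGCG
NDUFA9: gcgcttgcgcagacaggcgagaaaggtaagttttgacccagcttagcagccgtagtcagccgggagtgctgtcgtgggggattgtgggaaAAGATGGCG
NDUFB8: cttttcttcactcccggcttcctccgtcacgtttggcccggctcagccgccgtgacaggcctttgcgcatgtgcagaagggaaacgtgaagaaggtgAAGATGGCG
NDUFS4: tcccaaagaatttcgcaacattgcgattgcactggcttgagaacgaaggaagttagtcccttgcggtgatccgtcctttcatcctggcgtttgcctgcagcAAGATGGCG
These windows lie on GRCh37 at chr22:42486743-42486856 (minus strand), chr19:8386237-8386339 (minus), chr19:1383826-1383931 (plus), chr17:79213038-79213135 (plus), chr12:4758200-4758298 (plus), chr10:102289603-102289708 (minus) and chr5:52856389-52856498 (plus). Each spans the end of the upstream flank, the TSS and the first bases of exon 1.

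The YY1 letters stood at almost the same place in each of these genes. All 8 matches among the members read in the direction of the gene, and at the promoters printed their first base lay between 9 and 25 bases after the TSS, which is counted as 0 (NDUFAF8 at 9, NDUFA9 at 10, NDUFA7 at 14, NDUFB8 and NDUFS7 at 17, NDUFS4 at 21 and NDUFA6 at 25). In 6 of these 7, the ATG within these letters was the annotated start codon, and in NDUFAF8 the start codon lay further on, at 46 bases. Over all promoters, 78.4% of 578 matches read in the direction of the gene and 60.7% did so with a first base between 0 and 30 bases after the TSS. A match describes letters only and does not show that the factor was bound.

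HA peaks were found at promoters of complex I at about the rate of other promoters with H3K4me3. In the merged list, 22 of the 48 members (45.8%) had a peak, compared to 30% of all protein coding TSSs. H3K4me3 was present at 47 of the 48 members in each line, compared to 60.5% of all TSSs in ProMMP2-3xHA cells and 64.3% in WT cells. Among TSSs near both H3K4me3 lists, 22 of the 47 members (46.8%) had a merged HA peak, against 49.2% of 12149 TSSs. A peak in every replicate was found at 13 members (27.1%), against 17.3% of all TSSs, and among TSSs near both H3K4me3 lists the shares were 27.7% and 28.4%. The higher share of the members over all genes was therefore not seen once the TSSs without H3K4me3 were set aside.

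The replicates did not give the same number of members. Replicate 1 held a peak at 18 of the 47 members with H3K4me3 (38.3%, against 35.7% of all TSSs near both H3K4me3 lists), replicate 2 at 17 (36.2%, against 48.1%) and replicate 3 at 26 (55.3%, against 49.9%). No HA list held a peak at 20 of the 47 (42.6%), against 38.4%. Replicate 2, with 17, thus had the fewest members although its background was higher than that of replicate 1. The 5 members called in replicates 1 and 3 but not in replicate 2 had peaks of 150 to 183 bp in replicate 1 and of 169 to 452 bp in replicate 3, against a narrowest peak of 281 bp in the list of replicate 2. When only peaks of at least 281 bp were counted in each list, a setting chosen after seeing the data, 6 members in place of 13 had a peak in every replicate.

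The 13 members with a peak in the merged list and in every replicate came from several parts of the complex. Among them were the core subunits NDUFS7 and NDUFV2, the supernumerary subunits NDUFA6, NDUFA7, NDUFB2, NDUFB10, NDUFB11 and NDUFC2, the read-through gene NDUFC2-KCTD14 that shares the peak of NDUFC2, NDUFA4, and the assembly factors NDUFAF3 and NDUFAF8. Of the 8 members with a peak in 2 replicates, NDUFA9, NDUFA11, NDUFB9, NDUFAF1 and NDUFS3 were called in replicates 1 and 3, and NDUFA2, NDUFA10 and NDUFV3 in replicates 2 and 3. Of the 6 with a peak in 1 replicate, NDUFAF5 was called in replicate 2, and NDUFS6, NDUFA3, NDUFA13, NDUFB1 and NDUFB6 in replicate 3. NDUFS3, NDUFA3, NDUFA13, NDUFB1 and NDUFB6 had no peak in the merged list. The remaining 21 members had no HA peak in any list.

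**Figure D1:**
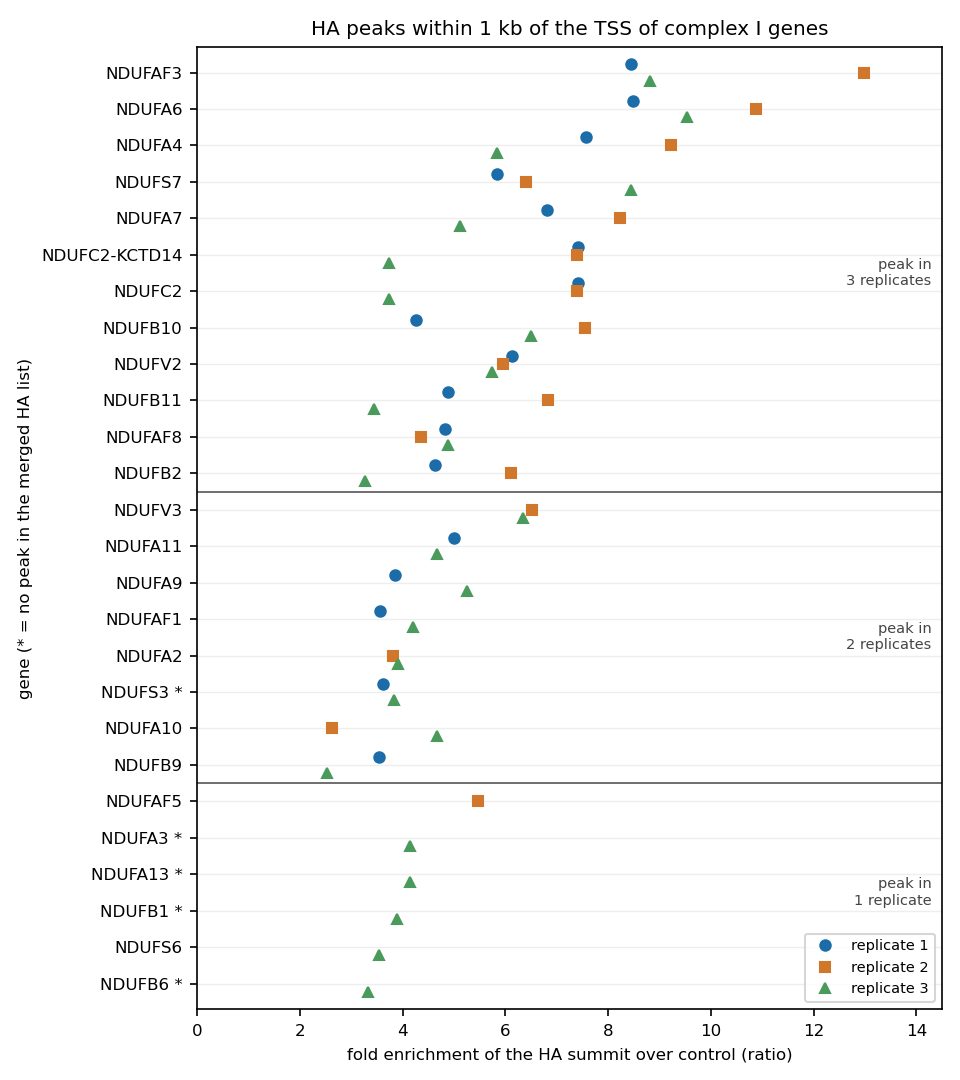
The x axis gives the authors' fold enrichment of the HA summit over control (a ratio) for 26 members (y axis) with a peak in at least 1 HA replicate, 1 point per replicate, ordered by the number of replicates and the mean. NDUFAF3 and NDUFA6 lead with values between 8.45 and 13.0, and the members called in 1 or 2 replicates lie between 2.53 and 6.52.

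The catalytic core was split between promoters with and without HA. NDUFV2, which carries an iron-sulphur cluster next to the NADH-oxidising site, had fold enrichments of 6.12, 5.95 and 5.75 in replicates 1, 2 and 3, a close agreement (5.94 ± 0.187, SD, n = 3). NDUFS7, which holds the last iron-sulphur cluster before ubiquinone, reached 5.85, 6.41 and 8.44 (6.90 ± 1.36, SD, n = 3). The values of NDUFV2 and NDUFS7 overlapped across replicates.

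Among the other core subunits, NDUFS3, a subunit of the arm that leads to ubiquinone, had narrow peaks in 2 replicates with fold enrichments of 3.62 in replicate 1 and 3.83 in replicate 3, and none in replicate 2 or the merged list. NDUFV1, which binds the flavin cofactor and NADH, NDUFS1, which carries several iron-sulphur clusters, and NDUFS8, another iron-sulphur protein, had H3K4me3 in both lines and no HA peak in any list. NDUFV1 and NDUFV2, direct partners at the NADH site, therefore fell in different classes. Of the 9 members of the NADH-oxidising N module, 5 (55.6%) had a merged peak (NDUFV2, NDUFV3, NDUFS6, NDUFA2 and NDUFA7), against 49.2% of all TSSs near both H3K4me3 lists. A peak in every replicate was found at 2 of the 9 (22.2%), against 28.4%.

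Of the 30 supernumerary subunits, all with H3K4me3 in both lines, 13 (43.3%) had a merged peak and 13 (43.3%) had no HA peak in any list. The shares were 49.2% and 38.4% of all TSSs near both H3K4me3 lists. They were 45.8% and 43.8% of all members, most of which are these subunits. NDUFA6, a small subunit that binds an acyl carrier protein, had the highest fold enrichment of any subunit at 8.49, 10.9 and 9.54 (9.64 ± 1.2, SD, n = 3), at percentiles 94.1, 94.4 and 96.3 of the protein coding TSSs with a peak in replicates 1, 2 and 3. The acyl carrier protein itself, NDUFAB1, had no HA peak. NDUFA7 of the N module reached 6.81, 8.22 and 5.12 (6.72 ± 1.56, SD, n = 3), within a merged region of 3656 bp that also covers the start of RPS28. The ranges of NDUFA6 and NDUFA7 did not overlap, with every value of NDUFA7 below the lowest of NDUFA6.

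In the membrane arm, NDUFB10 had fold enrichments of 4.26, 7.55 and 6.5, NDUFC2 of 7.41, 7.39 and 3.73, NDUFB11 of 4.88, 6.83 and 3.44 (5.05 ± 1.70, SD, n = 3) and NDUFB2 of 4.63, 6.11 and 3.27 (4.67 ± 1.42, SD, n = 3). Each of these 4 genes ranged over more between replicates than their means differed, and their values overlapped. At NDUFB2, 79, 83 and 46 HA fragments lay over a control background of 4 fragments in each replicate. At NDUFA6, 67 and 75 fragments in replicates 1 and 2 lay over 1.33 and 1.55, the background of the whole control library. The NDUFB2 summit thus had more fragments in these replicates but a lower fold enrichment. NDUFB9 showed this further, with 72 and 73 fragments over control values of 5 and 9 and the lowest mean fold enrichment of all members, 3.53 in replicate 1 and 2.53 in replicate 3.

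Another 11 supernumerary members were called in 1 or 2 replicates, NDUFB9 among them. NDUFV3 of the N module had 6.52 and 6.35 in replicates 2 and 3, NDUFA11 5.00 and 4.67 in replicates 1 and 3, NDUFA9 3.85 and 5.24 in replicates 1 and 3, NDUFA2 3.81 and 3.92 in replicates 2 and 3, and NDUFA10 2.62 and 4.67 in replicates 2 and 3. In replicate 3 alone, NDUFA3 and NDUFA13 each had 4.15, NDUFB1 had 3.89, NDUFS6 had 3.54 and NDUFB6 had 3.33. NDUFV3 thus stood above all other members called in fewer than 3 replicates. All but NDUFS6 of the 5 called in replicate 3 alone were missing from the merged list. The supernumerary subunits without any HA peak were NDUFA1, NDUFA5, NDUFA8, NDUFA12, NDUFAB1, NDUFB3, NDUFB4, NDUFB5, NDUFB7, NDUFB8, NDUFC1, NDUFS4 and NDUFS5, which made 13 of 30.

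NDUFA4 and NDUFA4L2 differed in every list. NDUFA4, first described in complex I and since assigned to cytochrome c oxidase, had fold enrichments of 7.56, 9.22 and 5.83 (7.54 ± 1.69, SD, n = 3) and H3K4me3 regions of 2035 bp in ProMMP2-3xHA and 2280 bp in WT cells. NDUFA4L2, a paralogue known as a gene induced by hypoxia, was the only member with no H3K4me3 in either line and no HA peak, and its nearest merged peak lay 8195 bp away. All 47 other members had the mark in both lines.

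Among the assembly factors, NDUFAF3 had high peaks, NDUFAF8, NDUFAF1 and NDUFAF5 had lower ones, and the rest had none. Among protein coding TSSs with a peak, NDUFAF3 stood at percentiles 93.9, 97.6 and 94.1 in replicates 1, 2 and 3. NDUFAF8 stood at 45.3, 22.4 and 46.9. NDUFAF3, which acts in building the Q module, had the highest mean fold enrichment of all members at 8.45, 13.0 and 8.82 (10.1 ± 2.52, SD, n = 3). Its summits held 117, 143 and 98 HA fragments, not scaled for depth, over control values of 3 in replicates 1 and 2 and 2.82 in replicate 3. They lay upstream, at -738, -728 and -693 bp from the TSS, in a merged region that also reaches the starts of DALRD3 and IMPDH2. The order of the means rested on replicate 2, since in replicates 1 and 3 NDUFA6 was higher (8.49 and 9.54). The partner of NDUFAF3, NDUFAF4, had no HA peak in any list. NDUFAF8 had 4.82, 4.35 and 4.89 (4.69 ± 0.294, SD, n = 3). NDUFAF5, which NDUFAF8 stabilises and which hydroxylates NDUFS7, had a peak in replicate 2 alone, at 5.46.

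NDUFAF1, a factor for the membrane arm, had 3.57 in replicate 1 and 4.20 in replicate 3, each from 60 fragments over 4 control fragments and each with its summit 124 bp after the TSS. NDUFAF2, a paralogue of the subunit NDUFA12 that acts late in assembly, had no peak, and neither had NDUFA12. NDUFAF6 and NDUFAF7, the latter an arginine methyltransferase, had none either. The 4 without HA all had H3K4me3 in both lines. NDUFAF3 stood above NDUFAF8 in every replicate, with no overlap of their values.

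Subunits and assembly factors were then compared as groups. A merged peak was found at 18 of 40 subunits (45.0%) and 4 of 8 assembly factors (50%), and a peak in every replicate at 11 (27.5%) and 2 (25%). Of all TSSs near both H3K4me3 lists, 49.2% had a merged peak and 28.4% a peak in every replicate. In replicates 1, 2 and 3, 35.7%, 48.1% and 49.9% of these TSSs had a peak. The share of subunits with a peak was 37.5%, 35.0% and 57.5% in replicates 1, 2 and 3, and that of assembly factors was 37.5% in each. The difference was 0, -2.5 and 20 percentage points, a mean of 5.83 ± 12.3 (SD, n = 3, exact sign permutation over the replicates, two-sided, p = 1), and 0.25 is the smallest p that 3 replicates allow. Without replicate 3 the mean difference was -1.25, so that its direction rested on that replicate.

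The height of the peaks was compared next. The median fold enrichment was 5.73, 6.67 and 4.15 at subunits with a peak and 4.82, 5.46 and 4.89 at assembly factors with a peak, a ratio of 1.19, 1.22 and 0.849 (mean log2 ratio 0.10 ± 0.29, SD, n = 3, exact sign permutation, two-sided, p = 0.5). For all members with a peak the medians were 5.36, 6.52 and 4.18, compared to 4.97, 5.68 and 5.01 at other protein coding TSSs with a peak, ratios of 1.08, 1.15 and 0.833 (mean log2 ratio 0.02 ± 0.25, SD, n = 3, exact sign permutation, two-sided, p = 1). Replicate 3, in which most members had a peak, was the replicate in which their median lay below that of other genes.

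**Figure D2:**
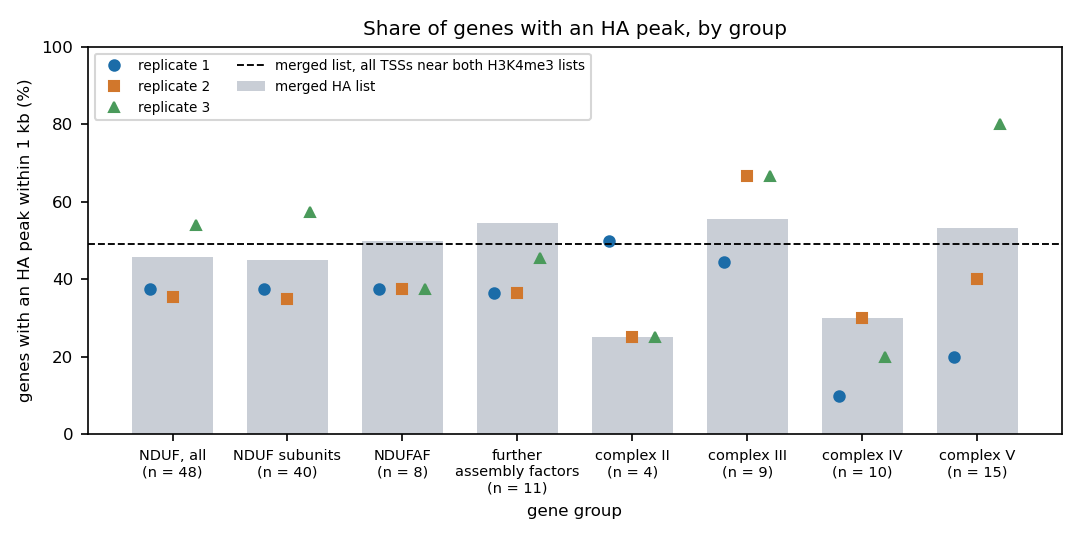
Bars give the percentage of genes (y axis) of each group (x axis, with the number of genes) that had a merged HA peak within 1 kb of the TSS, points give the 3 replicates, and the dashed line is the 49.2% of all TSSs near both H3K4me3 lists. The NDUF bars, at 45.8%, 45.0% and 50%, lie near the line, and complexes II and IV, at 25% and 30%, lie below it with 4 and 10 genes. The bars of all NDUF genes and of subunits include NDUFA4L2, which had no H3K4me3. Of the 47 members near both H3K4me3 lists, 46.8% had a merged peak.

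The other complexes of oxidative phosphorylation gave a setting for these counts. Of the 38 nuclear genes listed for complexes II to V, all of which had H3K4me3 in both lines, 17 (44.7%) had a merged peak and 8 (21.1%) a peak in every replicate. The shares of all TSSs near both H3K4me3 lists were 49.2% and 28.4%. A merged peak was found at 1 of 4 genes (25%) of complex II, the succinate dehydrogenase (SDHD), and 5 of 9 (55.6%) of complex III, the cytochrome bc1 complex. It was found at 3 of 10 (30%) of complex IV, the cytochrome c oxidase, and 8 of 15 (53.3%) of complex V, the ATP synthase, against the same 49.2%. ATP5F1E, a subunit of the ATP synthase, had 11.4, 14.6 and 10.4, above the values of NDUFAF3 in each replicate. Of 11 further assembly factors of complex I without an NDUF symbol, 6 (54.5%, against 49.2%) had a merged peak (ACAD9, COA1, DMAC2, NUBPL, TIMMDC1 and TMEM126B). ACAD9 (3.48, 7.2 and 5.33) and COA1 (5.23, 6.43 and 4.5) were called in every replicate (18.2% of the 11, against 28.4%). These lists hold few genes each, and differences between them were not tested.

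The merged peaks at the members had a median width of 601 bp over 21 distinct regions and a range of 159 to 13119 bp, with 3 wider than 2 kb. NDUFAF3 lay in the widest of these, chr3:49053995-49067113, which also reaches the starts of DALRD3 and IMPDH2. At NDUFB10 a region of 5823 bp (chr16:2009553-2015375) began 14 bp after the TSS. It covered the rest of the canonical transcript and also reached RPS2. Altogether 11 of the 22 members with a merged peak shared it, within 1 kb, with another named protein coding TSS. The share of such peaks over all TSSs is not given. The other starts were those of VMAC at NDUFA11, IK at NDUFA2, RPS28 at NDUFA7, AKAP3 at NDUFA9, ESF1 at NDUFAF5, TEPSIN at NDUFAF8, RBM10 at NDUFB11, TATDN1 at NDUFB9 and MRPL36 at NDUFS6, besides the 2 regions above. At these genes a peak cannot be assigned to 1 of the starts. Of the 30 members with no other named TSS within 1 kb of their own, 15 (50%) had a merged peak. This was near the 49.2% of all TSSs near both H3K4me3 lists, with or without such a neighbour.

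Members without a merged peak lay far from any. These 26 members lay between 6088 bp (NDUFB8) and 2699895 bp (NDUFA5) from the nearest merged peak, with a median of 48919 bp, and windows of 500 bp, 1 kb and 2 kb each gave 22 members. Requiring the TSS itself to lie inside the peak gave 13. Divergent neighbours within 1 kb were found at 17 of 48 members, and 7 of these 17 had a merged peak. The shares for divergent neighbours over all TSSs are not given, so these counts have no reference. Any other named TSS lay within 1 kb at 7 of 22 members with a merged peak (31.8%) and 11 of 26 without (42.3%), against 21.6% and 14% of all TSSs near both H3K4me3 lists. The order of the groups was opposite in the members and in all TSSs, with 22 and 26 members.

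HA summits stood either just after the TSS or further before it. Replicates 1, 2 and 3 had 9 of 18, 9 of 17 and 13 of 26 member summits downstream, against 55.4%, 56.3% and 58.9% of the summits at other TSSs. The shares of the members (50%, 52.9% and 50%) were lower in each replicate, a difference that was not tested. The test below is against an even split, not against other TSSs. The excess over an even split was 0, 2.94 and 0 percentage points (mean 0.98 ± 1.70, SD, n = 3, exact sign permutation, two-sided, p = 1). It was 19.4 ± 8.55 (SD, n = 3) when only summits within 250 bp were taken and 22.0 ± 8.02 (SD, n = 3) with the 5′ end of the gene record as TSS (exact sign permutation, p = 0.25 each, the smallest possible). The even split thus depended on the window and the TSS. The cut at 250 bp took out mostly upstream summits, which lay further from the TSS, so its excess does not show a downstream preference. Values at other TSSs are not given for these settings. Of the downstream summits, 9 of 9, 9 of 9 and 12 of 13 lay between 50 and 250 bp from the TSS, against 81.5%, 79.1% and 80.9% at other TSSs, with medians of 141, 126 and 124 bp, compared to 132, 142 and 135 bp at those. Upstream summits had medians of 257, 224.5 and 332 bp, against 288, 297 and 316 bp.

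Position was kept between replicates at most of the 13 members called in each. The summit of NDUFV2 lay 112, 115 and 124 bp after the TSS, that of NDUFA6 141, 142 and 161 bp after it and that of NDUFB2 96, 90 and 113 bp after it. Upstream, written as negative distances, that of NDUFB11 lay at -221, -235 and -252 bp, that of NDUFA7 at -134, -161 and -192 bp and that of NDUFAF3 at -738, -728 and -693 bp. The highest summit changed side at others. At NDUFA4 it lay at 119, 125 and -506 bp, at NDUFC2 at -168, -140 and 70 bp, and at NDUFAF8 at -368, 165 and -377 bp, where TEPSIN starts at -263 bp.

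**Figure D3:**
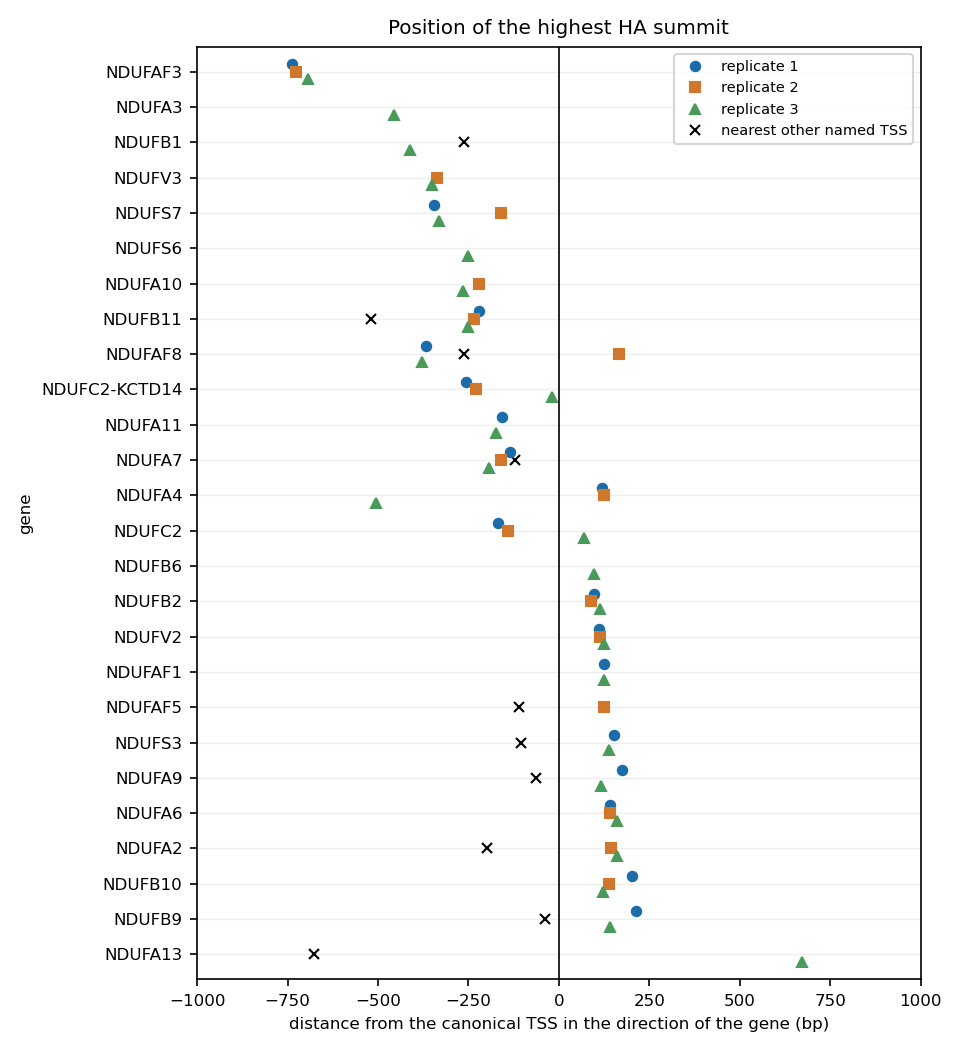
The x axis gives the distance in bp of the highest HA summit from the canonical TSS in the direction of the gene, 1 point per replicate, for 26 members with a peak (y axis), and crosses mark the nearest other named TSS within 1 kb. Downstream summits gather between 70 and 213 bp apart from NDUFA13 at 672 bp, and upstream summits spread from -19 to -738 bp.

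The YY1 letters, the start codon and HA peaks met at some of these promoters and not at others. Of the members with these letters, NDUFA6, NDUFA7, NDUFS7 and NDUFAF8 had a peak in every replicate, NDUFA9 in replicates 1 and 3, and NDUFB8 and NDUFS4 in none. In all, 6 of the 8 members with the letters had a merged peak, compared to 16 of the 39 other members with H3K4me3 (41.0%), and over all TSSs near both H3K4me3 lists the shares were 51.6% with the letters and 49.1% without. The letters themselves lay inside a peak of every replicate at NDUFA6 and NDUFA7, and inside peaks of replicates 1 and 2 at NDUFS7. At NDUFAF8 they lay inside the merged peak only, and at NDUFA9 inside none.

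For NRF1, 4 of the 8 members with the letters had a merged peak (NDUFA6, NDUFAF5, NDUFS6 and NDUFS7), against 56.0% of all TSSs with the letters near both H3K4me3 lists. At NDUFS7 the NRF1 letters, which start at -73, lay inside a peak of every replicate. For ETS factors, 2 of 10 had a merged peak (NDUFAF8 and NDUFB9), against 55.3%. These counts are small and were not tested.

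Members with a merged peak had wider H3K4me3 regions and a somewhat higher GC content than the others. In ProMMP2-3xHA cells the median width was 1573 bp at the 22 with a merged peak and 1228 bp at the 25 without, and in WT cells 2205.5 and 1657 bp. Over all TSSs near both H3K4me3 lists the corresponding medians were 1681 and 1195.5 bp in ProMMP2-3xHA cells and 2108 and 1643 bp in WT cells. The ranges overlapped, from 541 to 2910 bp with and from 634 to 2354 bp without a merged peak in ProMMP2-3xHA cells, and NDUFS7, with HA in every replicate, had the narrowest region of all members (541 bp). NDUFS1, without HA, had 2354 bp.

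The median GC content within 500 bp of the TSS was 60.2% with and 57.8% without a merged peak, and 56.7% at the 20 members with H3K4me3 and no HA list. All TSSs near both H3K4me3 lists had 64.2% with and 64.1% without a merged peak, so that the members were poorer in GC than these as a group (59.0% against 64.1%). The ratio of observed to expected CpG was 0.809 with and 0.716 without a merged peak, against 0.806 and 0.783 over all TSSs. Canonical transcripts of the members were shorter, with a median of 11678 bp against 30604 bp for all TSSs near both H3K4me3 lists. The parts of width and GC content in the HA counts were not tested.

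H3K4me3 regions at the members were wider in the WT list than in the ProMMP2-3xHA list, as they were at other genes. The WT region was wider at 45 of 47 members, against 93.1% of all TSSs near both lists. The ratio of WT to ProMMP2-3xHA width had a median of 1.34 and a range of 0.758 to 3.09, and the median over all TSSs was 1.28. The exceptions were NDUFB4 (1743 bp in ProMMP2-3xHA and 1322 bp in WT cells) and NDUFB11 (2910 and 2869 bp). NDUFS6 had the highest ratio, with 1085 bp in ProMMP2-3xHA and 3355 bp in WT cells, and NDUFS7, NDUFA3, NDUFA1 and NDUFB10 followed with ratios of 2.31, 2.21, 2.14 and 2.13. With 1 library per line there was no test, and the line, the tag and the library cannot be told apart.

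**Figure D4:**
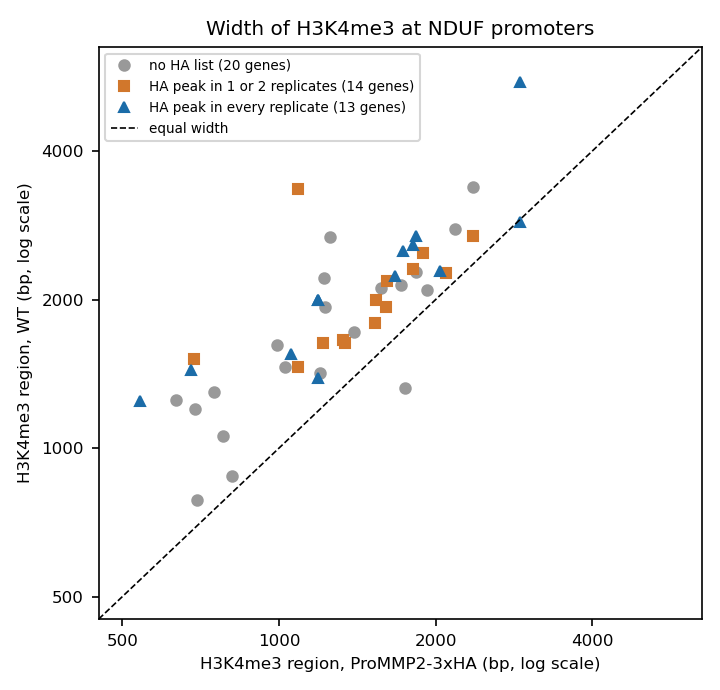
Each point is 1 of the 47 members with H3K4me3 in both lines, with the region width in ProMMP2-3xHA cells on the x axis and in WT cells on the y axis (bp, log scales), marked by the number of HA replicates with a peak. All but NDUFB4 and NDUFB11 lie above the dashed line of equal width, and the 3 classes of HA overlap along it.

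HA peaks lying wholly beyond 1 kb of the canonical TSS but within the gene were found at 3 members. Regions that reach to within 1 kb of the TSS and run on through the gene, as at NDUFB10 and NDUFAF3, were not counted here. In NDUFA2 the peak stood within 1 kb of the start of TMCO6. The annotated gene of NDUFV3 reaches far upstream of its canonical TSS, and the peak there stood at the start of WDR4. NDUFC2-KCTD14 had 2, one at the start of KCTD14 and the other, chr11:77751147-77751838, away from any protein coding start. Apart from the last, these separate HA peaks stood near the start of some protein coding gene. The study placed most of its HA peaks near such starts. Shares over all genes are not given here, so these few peaks show nothing particular to the members.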

How the data were processed

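Native ChIP-Seq peak lists of U2OS cells were used, with 3 HA replicates of ProMMP2-3xHA cells, their merged list, and 1 H3K4me3 library each of ProMMP2-3xHA and WT cells. The 6 samples were grouped by title, and no list of HA in WT cells was used here. Per the labels and the study's methods, the authors trimmed reads with Trim Galore 0.6.0, aligned pairs to hg19 (GRCh37) with Bowtie2 2.3.5.1, kept those with a mapping quality of at least 30 using SAMtools 1.9, removed duplicates with Picard and called peaks with MACS2 3.0.0a6 at a q-value of 0.05 against a control immunoprecipitation or input.

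The replicate lists were deposited as narrow peaks, with values from the authors' peak caller: fold enrichment over control at the summit (a ratio), −log10 p-value and q-value, and a score. In the merged HA list and both H3K4me3 lists the authors had combined narrow and broad calls into intervals without values, so that these regions join neighbouring calls and their widths do not compare with the replicate lists. The score was not used for any result. No read counts were used.

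TSSs came from GENCODE version 44 lifted to GRCh37, as the canonical transcript of each of 20162 protein coding genes on chromosomes 1 to 22, X and Y, or the 5′ end of the gene record for the 281 without one, NDUFB6 among them. A gene had a peak when an interval lay within 1 kb, the window of the study, and its fold enrichment was the highest such value of a replicate. Fragments and control at summits were recovered from the authors' fold enrichment and p-value for 99.7%, 99.9% and 99.5% of summits of replicates 1, 2 and 3, taking a value within 0.01 of a whole number. On summits simulated with the formula used for the recovery, 92.7% and 98.6% were resolved, and 100% of those resolved were right. This checks the calculation only. The recovered fragments cover counting error only. Neighbouring TSSs were those of protein coding genes with a symbol, without read-through genes of the same name. GC content and CpG were counted within 500 bp of the TSS.

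Where each of the 3 replicates gave 1 value, signs were permuted exactly (two-sided), and this p measures only the spread between these libraries. Shares and H3K4me3 were described with no test. Alternatives were the window, the TSS, the q-value, the peak width and leaving out each replicate or the genes outside the complex. The rule for genes given with values took all NDUFAF genes, the core subunits, the 5 highest and 5 lowest means among members with a peak in every replicate, members called in 1 or 2 replicates, those without HA or H3K4me3, and NDUFA4 with NDUFA4L2. The genes, lists and motifs were chosen with earlier results of these data known. Values were computed with numpy 2.4.6 in Python 3.11.15, and bedtools 2.31.1 served to check the windows. Values of 1 member enter the totals but are not reported here.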

Additional observations from a re-analysis of the deposited data

How the results depend on the processing

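Of 85 alternatives, 70 kept their direction or stayed within 1.5 times the count. The number of members with a merged peak, 22, fell to 13 when the TSS had to lie inside the peak and to 14 with merged peaks that every replicate held. The number with a peak in every replicate, 13, became 4 with the TSS inside the peak, 7 at a q-value of 0.001 and 6 with peaks as wide as the narrowest of replicate 2, and lay between 13 and 18 when 1 replicate was left out. The setting of the width, and that of members with no other named TSS near their own (15 with a merged peak), were added after seeing the data. The difference between subunits and assembly factors in the share with a peak was 0 at a q-value of 0.01 and between -1.25 and 10 percentage points when 1 replicate was left out. The log2 ratio of fold enrichment at members over other TSSs was -0.0244 with a window of 500 bp, -0.0326 without NDUFA4, NDUFA4L2 and the read-through gene, and between -0.0772 and 0.155 when 1 replicate was left out. That of subunits over assembly factors was -0.195 with the 5′ end of the gene record, -0.117 at a q-value of 0.001, and between 0.00586 and 0.269 when 1 replicate was left out. The excess of downstream summits was -6.03 percentage points at a q-value of 0.001, 22.0 with the 5′ end of the gene record and between 0 and 1.47 when 1 replicate was left out. It was 19.4 within 250 bp of the TSS, a cut that took out mostly upstream summits. None of these values passed a threshold in any setting, since 3 replicates allow no p below 0.25, and the causes of the shifts were not tested. No paired analysis was possible because the HA and H3K4me3 groups and the cell lines share no more than replicate number 1. The depth of H3K4me3 is unknown.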
